A study of Mus musculus with 12 samples.

Results

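Microglia are the resident macrophages of the brain, and the genes described here are 33 that mark microglia and other macrophages. They were chosen by name, and for each gene the brightest probe set on average was taken among those annotated with exactly 1 gene symbol. All 33 had such a probe set, out of 22180 genes with one, and Irf8 was the member with 2 to choose from. Transcripts were measured on 12 Affymetrix whole-transcript arrays in primary neuronal cultures from embryonic brain of the outbred mouse stock ICR (CD-1). Cultures received amitriptyline (5 µM), citalopram (10 µM), duloxetine (0.1 µM), imipramine (5 µM) or mirtazapine (50 µM) at day in vitro 3, or served as control, and were harvested 48 h later at day in vitro 5. Each of these 6 groups had 2 arrays. Amitriptyline and imipramine are tricyclic antidepressants, citalopram is a selective serotonin reuptake inhibitor, duloxetine inhibits serotonin and noradrenaline reuptake, and mirtazapine is a tetracyclic antidepressant. The labels do not say what the control cultures received. They also leave unsaid whether the 2 arrays of a group were separate cultures, and the spread behind each p-value may then be technical.

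Microglia enter the brain early in embryonic life and survive there through the receptor Csf1r, which binds the cytokines Csf1 and Il34. The transcription factor PU.1, encoded by Spi1, sets up their gene programme together with Irf8, and their surface carries purine receptors, the fractalkine receptor Cx3cr1, Fc receptors and the adaptor Tyrobp, through which Trem2 signals. They prune synapses and clear debris, tagging material with the complement protein C1q and digesting it in lysosomes. A neuronal culture prepared from embryonic brain is meant to hold neurons and can carry over some macrophages.

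Values are log2 signals after RMA, a procedure that corrects background, equalises the distribution of signals between arrays and summarises probes. They come with no detection call, and levels of different probe sets cannot be ranked against each other, so comparisons are made within a gene. All 10 neuron markers examined, among them Tubb3, Map2 and Snap25, had mean log2 signals of 7.64 to 12.92. A filter on low values kept genes with a mean log2 of at least 5.724, which is the 30th percentile over probe sets. All 10 neuron markers and 29 of the 33 macrophage genes passed it and were tested. Gpr34, Cd14, Cd86 and Ptprc lay below the filter and are given as values. Of 19 genes of T cells, B cells, neutrophils and mast cells with a probe set, 11 passed it as well. Passing the filter thus does not show that a transcript was present. A stricter filter at the 50th percentile, 6.648, was passed by 14 of the members. In RNA of a whole culture, fewer macrophages and less RNA per macrophage cannot be told apart.

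Duloxetine replicate 2 and mirtazapine replicate 2 stood apart from the other 10 arrays. Their upper quartiles over all probe sets were 8.21 and 8.2, against 8.31 to 8.37 elsewhere, and they held the highest value of 18.9% and 15.8% of all tested genes. Each other array held at most 11.5%. The same arrays also held the lowest value of 17.3% and 26.5% of all tested genes, against at most 10% on each other array. Their lower quartiles were 5.5 and 5.57, against 5.37 to 5.5 elsewhere. The 19 genes of T cells, B cells, neutrophils and mast cells that had a probe set, cell types with no stated place in these cultures, read high on both: their median deviation from each gene's own mean over 12 arrays was 0.31 log2 units on either array. Elsewhere that median lay between −0.136 and 0.072.

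Promoter sequence was not used in the choice by name, and 16 of the members held the core of a PU.1 site there. PU.1 binds purine-rich sites with the core GAGGAA, and this core was searched on both strands (GAGGAA or TTCCTC) in windows of 300 bases, 250 before to 50 after the gene start, from RefSeq on GRCm38.p6. Of the 24 members with an entry, 16 (66.7%) held it, against 31.3% of 27025 genes and 28.3% of all 32851 windows. The longer form GAGGAAGT stood in 3 of the 24 (12.5%), against 3.69% of all genes. Tyrobp, C1qa, Csf1r, Cd14, Cd86, Gpr34, Lilrb4a, Spi1 and Tmem119 had no entry. The 4 windows below were picked as examples that hold a match, from genes described in the results, with the matches in capitals. The members with an entry but 0 matches were Cx3cr1, P2ry12, Fcer1g, Ly86, Lyz2, Mpeg1, Irf8 and Cd163. The 4 windows shown are Cd68 at chr11:69666121-69666420 (minus strand), Cd53 at chr3:106790100-106790399 (minus strand), Ctss at chr3:95526536-95526835 (plus strand) and C1qb at chr4:136886151-136886450 (minus strand), each read along the gene.
Cd68: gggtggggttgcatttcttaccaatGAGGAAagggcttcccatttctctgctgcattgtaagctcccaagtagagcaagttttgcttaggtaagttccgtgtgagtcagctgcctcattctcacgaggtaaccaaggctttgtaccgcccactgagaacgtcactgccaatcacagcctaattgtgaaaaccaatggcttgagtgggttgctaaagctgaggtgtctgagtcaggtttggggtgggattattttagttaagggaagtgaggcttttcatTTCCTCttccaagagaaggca
Cd53: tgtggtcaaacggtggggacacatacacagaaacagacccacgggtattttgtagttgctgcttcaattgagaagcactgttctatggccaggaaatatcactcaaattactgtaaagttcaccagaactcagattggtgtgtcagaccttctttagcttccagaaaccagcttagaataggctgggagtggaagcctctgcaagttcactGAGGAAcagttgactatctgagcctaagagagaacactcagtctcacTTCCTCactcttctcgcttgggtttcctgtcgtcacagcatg
Ctss: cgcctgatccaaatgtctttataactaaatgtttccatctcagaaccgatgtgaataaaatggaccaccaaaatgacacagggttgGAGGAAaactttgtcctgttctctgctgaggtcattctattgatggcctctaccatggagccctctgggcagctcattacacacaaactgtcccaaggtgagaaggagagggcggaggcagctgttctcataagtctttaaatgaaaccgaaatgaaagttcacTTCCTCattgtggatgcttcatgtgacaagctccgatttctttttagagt
C1qb: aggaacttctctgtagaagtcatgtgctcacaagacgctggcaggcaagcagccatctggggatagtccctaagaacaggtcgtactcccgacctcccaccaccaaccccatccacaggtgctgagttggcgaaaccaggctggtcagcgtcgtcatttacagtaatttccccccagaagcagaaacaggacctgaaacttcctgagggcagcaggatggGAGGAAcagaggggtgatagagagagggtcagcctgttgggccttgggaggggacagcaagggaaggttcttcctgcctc
The lysosomal gene Cd68 has 1 match on each strand, the first bases at −225 and 30 from the start, where 1 is the first transcribed base. Cd53 has matches at −39 and 9, Ctss at −164 and 1, and C1qb at −30. A match is a run of letters and was not measured as a bound site.

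No member passed the test in any comparison. In limma, with Benjamini-Hochberg adjustment over 17467 genes and a threshold of 0.05, 0 of 29 members were called under amitriptyline, citalopram, duloxetine, imipramine or mirtazapine, or in the F test for any difference among the 6 groups. Over all genes the called shares were also small: 0% in either direction for amitriptyline, citalopram and duloxetine, 0.0286% higher and 0% lower for imipramine, 0.269% higher and 1.47% lower for mirtazapine, and 0.103% in the F test. At an unadjusted p under 0.05 the members numbered 1 under amitriptyline (Cd68), 1 under citalopram (Ly86), 1 under duloxetine (Csf1r), 2 under imipramine (Aif1 and Cd68) and 1 under mirtazapine (Cd68). The same rule held for 6.14%, 4.44%, 10%, 4.56% and 22.4% of all tested genes. The arrays limit how far this goes, since the 95% interval of a member's difference reached from 0.218 (Trem2) to 0.789 (Lilrb4a) log2 units to either side.

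**Figure D1:**
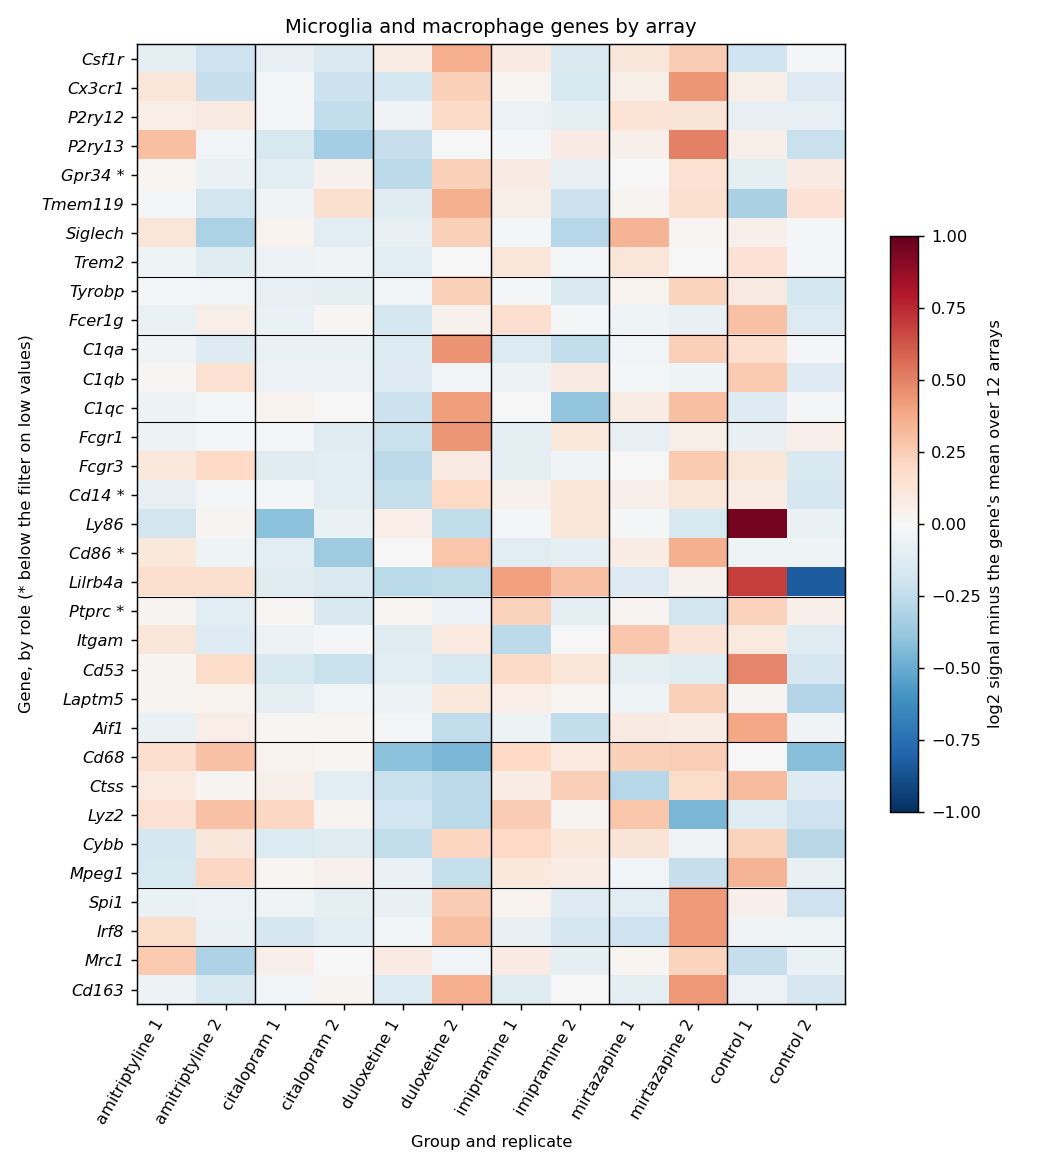
Log2 signal of the 33 genes (rows, by role) on the 12 arrays (columns), as the deviation from each gene's mean over all arrays; red is above and blue below, and an asterisk marks genes below the filter. Control replicate 1 is red for Ly86, Lilrb4a, Cd53 and Aif1, while duloxetine replicate 2 and mirtazapine replicate 2 are red over most of the receptor rows.

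The 8 surface receptors that mark resting microglia had ranges over the 12 arrays of 0.27 (Trem2) to 0.84 (P2ry13) log2 units, against a median range of 0.6 over all 33 members. Csf1r, the receptor for Csf1 and Il34, had log2 signals of 6.36 and 6.24 under amitriptyline, 6.37 and 6.3 under citalopram, 6.52 and 6.81 under duloxetine, 6.53 and 6.3 under imipramine and 6.56 and 6.7 under mirtazapine, against 6.25 and 6.44 in control. Both duloxetine arrays and both mirtazapine arrays lay above both control arrays. Differences were 0.32 (95% interval 0.035 to 0.605, adjusted p = 0.492 in limma) under duloxetine and 0.285 (SE 0.128, adjusted p = 0.223) under mirtazapine. The highest Csf1r values, 6.81 and 6.7, were on the 2 arrays that stand apart. With 1 array left out, the difference ranged from 0.175 to 0.465 under duloxetine and from 0.19 to 0.38 under mirtazapine. Cx3cr1, the receptor for fractalkine from neurons, was 7.97 and 7.62 under amitriptyline, 7.83 and 7.64 under citalopram, 7.68 and 8.09 under duloxetine, 7.87 and 7.7 under imipramine and 7.91 and 8.29 under mirtazapine, against 7.91 and 7.72 in control. It was highest on the 2 arrays that stand apart for duloxetine and mirtazapine, and the difference under mirtazapine was 0.285 (interval −0.119 to 0.689). The ADP receptor gene P2ry12 was 6.2 and 6.22 under amitriptyline, 6.12 and 5.89 under citalopram, 6.1 and 6.32 under duloxetine, 6.07 and 6.04 under imipramine and 6.27 and 6.26 under mirtazapine, against 6.05 and 6.05 in control. Its control arrays were equal, and both arrays of amitriptyline, duloxetine and mirtazapine lay above them, by 0.16, 0.16 and 0.215 on average (adjusted p = 0.996, 0.556 and 0.245 in limma). P2ry13, its neighbour in the genome, was 6.44 and 6.11 under amitriptyline, 5.98 and 5.8 under citalopram, 5.91 and 6.14 under duloxetine, 6.13 and 6.22 under imipramine and 6.19 and 6.64 under mirtazapine, against 6.19 and 5.92 in control. The difference under mirtazapine, 0.36 (interval −0.025 to 0.745, adjusted p = 0.243 in limma), was the second highest of any tested member for that drug, and the mirtazapine and control arrays touched at 6.19.

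Tmem119, a membrane protein used to tell microglia from other macrophages, was 6.54 and 6.38 under amitriptyline, 6.53 and 6.72 under citalopram, 6.44 and 6.92 under duloxetine, 6.62 and 6.35 under imipramine and 6.59 and 6.72 under mirtazapine, against 6.24 and 6.71 in control. Control replicate 1 was the lowest of all 12 arrays and control replicate 2 was above 7 of the 10 drug arrays, so the control pair spans most of the range. Trem2, the lipid receptor of phagocytosis, was 7.22 and 7.14 under amitriptyline, 7.21 and 7.23 under citalopram, 7.15 and 7.27 under duloxetine, 7.38 and 7.24 under imipramine and 7.38 and 7.27 under mirtazapine, against 7.41 and 7.25 in control. The range over all 12 arrays was 0.27 log2 units, the smallest among the 33 members. Both amitriptyline and both citalopram arrays lay below both control arrays, with differences of −0.15 (interval −0.368 to 0.068) and −0.11 (interval −0.328 to 0.108). Siglech, a sialic acid receptor of microglia, ranged from 5.73 to 6.39, and Gpr34, a lysophosphatidylserine receptor, from 4.72 to 5.22.

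The adaptors Tyrobp and Fcer1g carry the signal of Trem2 and of Fc receptors into the cell. Tyrobp was 7.04 and 7.03 under amitriptyline, 6.98 and 6.97 under citalopram, 7.03 and 7.3 under duloxetine, 7.04 and 6.91 under imipramine and 7.09 and 7.28 under mirtazapine, against 7.15 and 6.88 in control. Control replicate 2 was the lowest of the 12 arrays and duloxetine replicate 2 the highest. Fcer1g ranged from 7.58 to 7.92 over the 10 drug arrays, while the control arrays lay at 8.05 and 7.62, so control replicate 1 stood above every drug array.

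The 3 chains of complement C1q, made in the brain mainly by microglia and encoded side by side, did not share one pattern over the arrays. C1qa was 7.28 and 7.19 under amitriptyline, 7.25 and 7.25 under citalopram, 7.18 and 7.77 under duloxetine, 7.18 and 7.07 under imipramine and 7.29 and 7.56 under mirtazapine, against 7.49 and 7.31 in control. All amitriptyline, citalopram and imipramine arrays lay below both control arrays, with differences of −0.165, −0.15 and −0.275 (adjusted p = 0.996, 1 and 1 in limma). C1qb was 7.96 and 8.1 under amitriptyline, 7.89 and 7.89 under citalopram, 7.82 and 7.92 under duloxetine, 7.9 and 8.04 under imipramine and 7.94 and 7.91 under mirtazapine, against 8.21 and 7.82 in control, with control replicate 1 the highest and control replicate 2 tied for the lowest. C1qc was 6.48 and 6.52 under amitriptyline, 6.57 and 6.53 under citalopram, 6.32 and 6.95 under duloxetine, 6.53 and 6.14 under imipramine and 6.61 and 6.83 under mirtazapine, against 6.4 and 6.51 in control. Both citalopram and both mirtazapine arrays lay above both control arrays for C1qc, by 0.095 and 0.265. C1qa and C1qc, unlike C1qb, were highest on duloxetine replicate 2 and next on mirtazapine replicate 2, the arrays that stand apart. Both were lowest on imipramine replicate 2.

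Among Fc, pattern and co-stimulatory receptors 2 genes had the widest ranges of all members. Ly86, which encodes MD-1, the partner of the Toll-like receptor homologue CD180, was 6.59 and 6.8 under amitriptyline, 6.36 and 6.7 under citalopram, 6.84 and 6.52 under duloxetine, 6.75 and 6.89 under imipramine and 6.75 and 6.61 under mirtazapine, against 7.73 and 6.7 in control. Control replicate 1 stood at 7.73 and the other 11 arrays between 6.36 and 6.89, and control replicate 2 lay inside the drug range. Ly86 was therefore the member with the lowest difference for all 5 drugs, from −0.685 under citalopram (interval −1.295 to −0.075, unadjusted p = 0.0314, adjusted p = 1 in limma) to −0.395 under imipramine. Without control replicate 1 these differences were between −0.17 and 0.12. Lilrb4a, an inhibitory immunoglobulin-like receptor, was 6.36 and 6.36 under amitriptyline, 6.08 and 6.06 under citalopram, 5.93 and 5.95 under duloxetine, 6.61 and 6.49 under imipramine and 6.07 and 6.24 under mirtazapine, against 6.89 and 5.37 in control. Its control arrays were at once the highest and the lowest of the 12, 1.52 apart, with every drug array between them. A second probe set names Lilrb4a along with another gene and was left out, and near-identical relatives of Lilrb4a may share probes. The Fc receptor genes Fcgr1 and Fcgr3 ranged from 6.15 to 6.81 and from 6.71 to 7.23. The endotoxin receptor gene Cd14 ranged from 5.28 to 5.72 and the co-stimulatory ligand gene Cd86 from 4.95 to 5.66, both under the filter.

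The leukocyte genes Cd53, Aif1 and Laptm5 repeated the split between the control arrays. Cd53, a tetraspanin of leukocytes, was 6.71 and 6.86 under amitriptyline, 6.53 and 6.46 under citalopram, 6.57 and 6.52 under duloxetine, 6.87 and 6.8 under imipramine and 6.59 and 6.56 under mirtazapine, against 7.17 and 6.51 in control. Aif1, which encodes the microglial stain IBA1, was 6.58 and 6.71 under amitriptyline, 6.66 and 6.66 under citalopram, 6.63 and 6.4 under duloxetine, 6.59 and 6.4 under imipramine and 6.73 and 6.72 under mirtazapine, against 7.03 and 6.61 in control. For both, control replicate 1 was above all 10 drug arrays and control replicate 2 was inside their range. Both imipramine arrays lay below both control arrays for Aif1, with a difference of −0.325 (interval −0.64 to −0.01, unadjusted p = 0.0443, adjusted p = 1 in limma). Ptprc, the pan-leukocyte antigen CD45, was 5.16 and 5.02 under amitriptyline, 5.14 and 4.98 under citalopram, 5.15 and 5.07 under duloxetine, 5.36 and 5.03 under imipramine and 5.16 and 4.95 under mirtazapine, against 5.36 and 5.18 in control, below the filter throughout. Itgam, the integrin chain CD11b, ranged from 5.96 to 6.49, and Laptm5, a lysosomal protein of leukocytes, from 6.5 to 7.03 with control replicate 2 at the bottom.

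Cd68, a glycoprotein of late endosomes and lysosomes, was the member that differed most between groups. Its signals were 8.69 and 8.82 under amitriptyline, 8.56 and 8.54 under citalopram, 8.11 and 8.07 under duloxetine, 8.72 and 8.62 under imipramine and 8.76 and 8.77 under mirtazapine, against 8.52 and 8.1 in control. The 8 arrays of amitriptyline, citalopram, imipramine and mirtazapine all lay above both control arrays, and the 2 duloxetine arrays lay beside the lower control array. Means were 8.755 ± 0.092 under amitriptyline, 8.55 ± 0.014 under citalopram, 8.09 ± 0.028 under duloxetine, 8.67 ± 0.071 under imipramine and 8.765 ± 0.0071 under mirtazapine, against 8.31 ± 0.297 in control (SD, n = 2 each, no test on these alone). Differences in limma were 0.445 ± 0.126 (SE; 1.36-fold, adjusted p = 0.311) under amitriptyline and 0.455 ± 0.126 (1.37-fold, adjusted p = 0.102) under mirtazapine. They were 0.36 (1.28-fold, adjusted p = 0.718) under imipramine, 0.24 (1.18-fold, adjusted p = 1) under citalopram and −0.22 (adjusted p = 0.533) under duloxetine in the same limma fit. In limma's F test for any difference among the groups Cd68 had an adjusted p = 0.159, the lowest of any member. All comparisons use the same 2 control arrays, which differed by 0.42. Without control replicate 2 the Cd68 differences were 0.235 under amitriptyline, 0.03 under citalopram, −0.43 under duloxetine, 0.15 under imipramine and 0.245 under mirtazapine, and without control replicate 1 they were 0.655, 0.45, −0.01, 0.57 and 0.665 in the same order of drugs. Markers of glia were split over the same drugs. The median difference of 7 oligodendrocyte lineage genes was 0.325 for duloxetine, and for the other drugs it was −0.45 (amitriptyline), −0.495 (citalopram), −0.5 (imipramine) and −0.315 (mirtazapine), with 7 of 7 negative each time. That of 8 astrocyte genes was 0.01 for duloxetine and −0.32, −0.148, −0.265 and −0.403 for the others in that order. Their part in the Cd68 values was not tested.

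Lyz2, lysozyme of macrophages, resembled Cd68 under 3 of the drugs. It was 6.99 and 7.13 under amitriptyline, 7.05 and 6.87 under citalopram, 6.65 and 6.57 under duloxetine, 7.09 and 6.87 under imipramine and 7.12 and 6.38 under mirtazapine, against 6.72 and 6.63 in control. All arrays of amitriptyline, citalopram and imipramine lay above both control arrays, by 0.385, 0.285 and 0.305 on average (adjusted p = 0.944, 1 and 1 in limma). The mirtazapine arrays were 0.74 apart, with replicate 2 the lowest of the 12. The closely related gene Lyz1 may share probes with Lyz2. Ctss, the lysosomal protease cathepsin S, was 6.76 and 6.69 under amitriptyline, 6.71 and 6.56 under citalopram, 6.44 and 6.4 under duloxetine, 6.74 and 6.91 under imipramine and 6.38 and 6.85 under mirtazapine, against 6.98 and 6.53 in control. Both duloxetine arrays lay below both control arrays, a difference of −0.335 (interval −0.722 to 0.052, adjusted p = 0.507 in limma), and −0.11 without control replicate 1. Cybb, the catalytic chain of the phagocyte NADPH oxidase, ranged from 6.12 to 6.58 over the drug arrays, inside the control values of 6.59 and 6.09. Mpeg1, the pore-forming protein perforin-2, ranged from 5.94 to 6.38 over the drug arrays, below control replicate 1 (6.52) and around control replicate 2 (6.1).

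**Figure D2:**
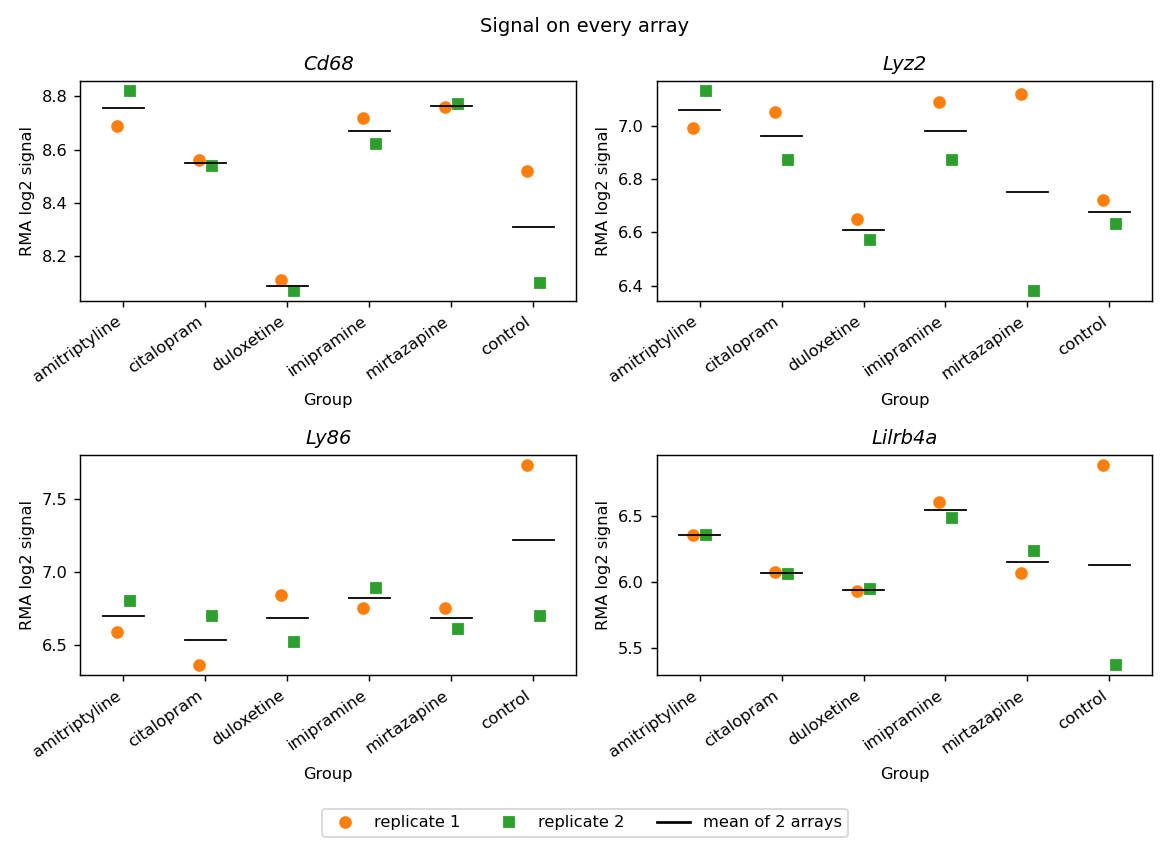
Log2 signal (vertical axes, each with its own range) of Cd68, Lyz2, Ly86 and Lilrb4a by group; points are the 2 arrays of a group and lines their mean. Cd68 lies between 8.54 and 8.82 under amitriptyline, citalopram, imipramine and mirtazapine, against 8.52 and 8.1 in control, while Ly86 and Lilrb4a are spread widest in control.

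The transcription factor gene Spi1 was 6.99 and 7 under amitriptyline, 7.02 and 6.97 under citalopram, 6.98 and 7.31 under duloxetine, 7.09 and 6.93 under imipramine and 6.95 and 7.48 under mirtazapine, against 7.11 and 6.85 in control. Control replicate 2 was the lowest array and mirtazapine replicate 2 the highest. The difference under mirtazapine was 0.235 (interval −0.153 to 0.623, adjusted p = 0.406 in limma), and −0.03 without mirtazapine replicate 2. Irf8 ranged from 6.28 to 6.91, and both of these extremes were mirtazapine arrays.

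Mrc1 and Cd163 encode scavenger receptors of the macrophages at the borders of the brain. Mrc1 was 6.27 and 5.7 under amitriptyline, 6.06 and 6 under citalopram, 6.09 and 5.98 under duloxetine, 6.09 and 5.91 under imipramine and 6.03 and 6.23 under mirtazapine, against 5.78 and 5.94 in control. Both arrays of citalopram, duloxetine and mirtazapine lay above both control arrays, and the amitriptyline arrays were the highest and the lowest of the 12. Cd163 was 5.68 and 5.58 under amitriptyline, 5.7 and 5.76 under citalopram, 5.59 and 6.09 under duloxetine, 5.61 and 5.73 under imipramine and 5.63 and 6.16 under mirtazapine, against 5.67 and 5.56 in control. Its highest values, 6.16 and 6.09, were on the 2 arrays that stand apart, and without duloxetine replicate 2 the duloxetine difference was −0.025 in place of 0.225.

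The 2 control arrays were themselves apart for these genes. Control replicate 1 was higher than control replicate 2 for 25 of 33 members, lower for 6 and equal for 2, with a median difference of 0.22 log2 units; over all tested genes the median was −0.03, and 39.5% were higher in replicate 1. A step of at least 0.3 upward was met by 11 of 29 tested members (37.9%), against 3.88% of all tested genes. They were Lilrb4a, Ly86, Cd53, Cybb, Ctss, Fcer1g, Aif1, Cd68, Mpeg1, C1qb and Laptm5. A step of that size downward was met by Tmem119 alone, 1 of 29 (3.45%), against 5.16% of all tested genes. By role, 4 of 5 lysosomal and killing genes and 3 of 4 tested leukocyte surface genes took the upward step, and 0 of 7 tested homeostatic receptors did. With 1 array on each side there is no test.

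Control replicate 1 stood above all 10 drug arrays for 10 of the 29 tested members (34.5%), against 11.8% of all tested genes. Control replicate 2 stood above all of them for 0 of 29, against 11%, and below all of them for 6 of 29 (20.7%), against 3.93%. Those 6 were Lilrb4a, Cybb, Laptm5, Tyrobp, Spi1 and Cd163.

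The same step was counted in lists of other cell types. Of 54 further myeloid genes with a probe set, 9 of the 45 tested (20%) were higher by at least 0.3 in control replicate 1, among them Adgre1, the macrophage marker F4/80, the complement receptor gene C3ar1 and the leukocyte actin-bundling gene Lcp1. Of the other leukocyte genes 0 of 11 were, and of neuron, astrocyte and endothelial markers 0 of 10, 0 of 8 and 0 of 7. The oligodendrocyte lineage ran the other way, with 5 of 7 lower by at least 0.3 in control replicate 1 (median −0.37). Smaller differences of that sign were found for 9 of 10 neuron (median −0.13), 6 of 8 astrocyte (median −0.12) and 7 of 8 endothelial markers (median −0.1). Their part in the macrophage values was not tested.

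**Figure D3:**
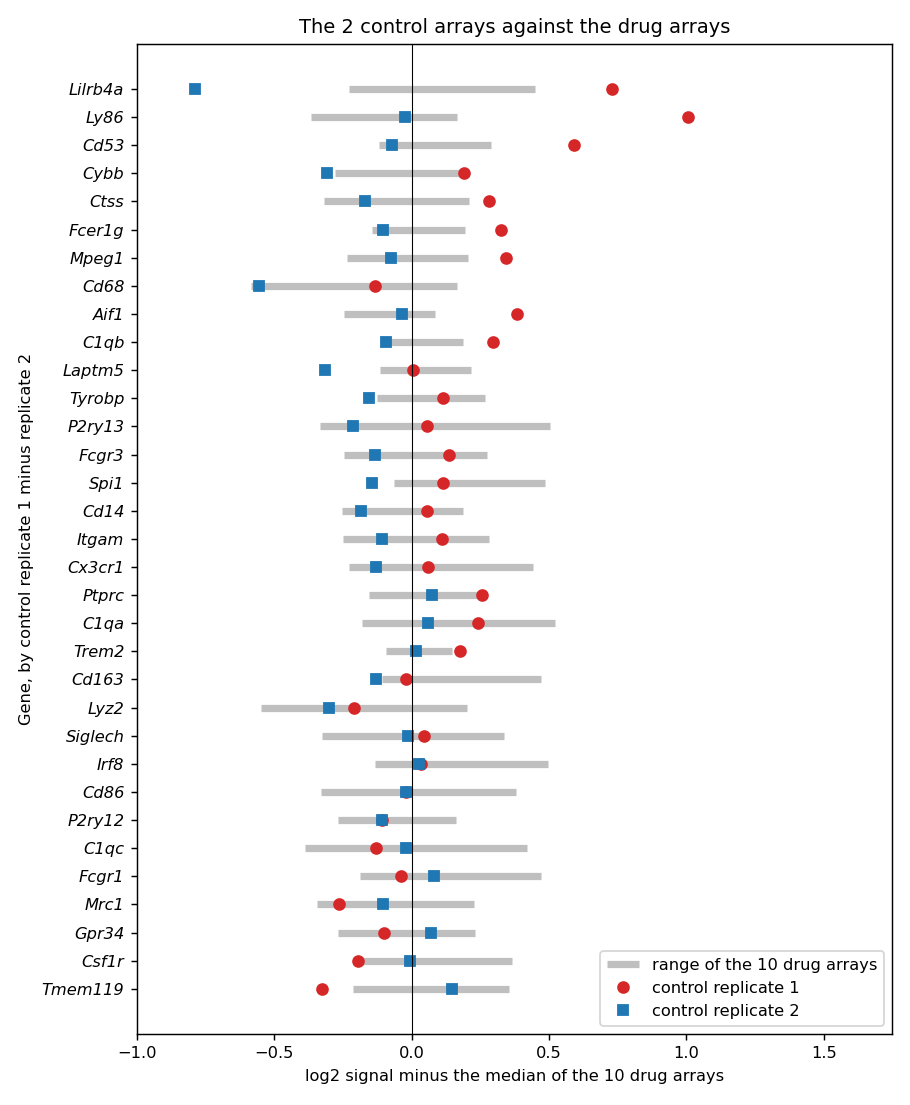
Log2 signal of the 2 control arrays for each of the 33 genes, relative to the median of the 10 drug arrays (vertical line); grey bars span the 10 drug arrays. Control replicate 1 (red circles) lies right of the bar for 10 genes, and control replicate 2 (blue squares) lies left of it for 6.

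The other replicate pairs gave a measure of how often such steps occur. With amitriptyline 4 of 29 tested members were higher by at least 0.3 in replicate 1 and 1 was lower, against 4.53% and 2.48% of all tested genes. With citalopram the counts were 0 and 1, against 2.35% and 1.21%, and with imipramine 1 and 0, against 5.14% and 2.18%. The pairs that include an array standing apart were wider: 1 and 11 members with duloxetine, against 18.9% and 19.1% of all tested genes, and 2 and 6 with mirtazapine, against 15.9% and 13.7%. Counting any difference above 0, replicate 1 was the higher array for 16 of 33 members with amitriptyline, 18 with citalopram, 9 with duloxetine, 23 with imipramine and 13 with mirtazapine. The shares over all tested genes were 42.3%, 48.3%, 51.8%, 56.2% and 54.4%. The duloxetine pair, with 11 of 29 members lower in replicate 1, thus had as many members past the step as the control pair, in a pair where steps of this size were common over all genes.

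Each drug was therefore set against the control arrays apart. Against control replicate 1 the median over 33 members was −0.115 for amitriptyline, −0.175 for citalopram, −0.09 for duloxetine, −0.1 for imipramine and 0.06 for mirtazapine. Against control replicate 2 it was 0.1, 0.04, 0.095, 0.09 and 0.19 in the same order of drugs. The sign thus turned with the control array for 4 of the 5 drugs. Over all tested genes the medians stayed between −0.05 and 0.01 against either array.

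Against the control mean the medians over members were 0.005 for amitriptyline (17 of 33 positive), −0.06 for citalopram (8 of 33 positive), 0.01 for duloxetine (17 of 33), −0.005 for imipramine (16 of 33) and 0.145 for mirtazapine (23 of 33). Over all tested genes the medians were −0.02, −0.005, −0.015, −0.005 and −0.035, and 41.7%, 47.4%, 46.6%, 45.9% and 44.1% of genes were positive. Both drug arrays lay above both control arrays for 3, 5, 4, 2 and 6 of 29 tested members, against 14.1%, 17%, 15.5%, 14.3% and 22.6% of all tested genes. They lay below both for 2, 3, 1, 3 and 0 of 29, against 24.2%, 22.1%, 18.3%, 19.1% and 30.6%. As a share of the 29 members, the upward counts of citalopram, duloxetine and mirtazapine were near the share over all genes. The upward counts of amitriptyline and imipramine were below that share, by few genes. The downward counts were below the share over all genes for all 5 drugs.

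Mirtazapine had the highest median, and its size fell without the array that stands apart. The 6 tested members above both control arrays were Cd68, Csf1r, Mrc1, C1qc, Itgam and P2ry12. Of 8 homeostatic receptors 7 were positive (median 0.198), whereas Ly86, Cd53 and Mpeg1 were lowest, at −0.535, −0.265 and −0.26. On mirtazapine replicate 1 the median deviation of the 33 members from their own means was 0.027, and on replicate 2 it was 0.15. The 19 other leukocyte genes stood at 0.072 and 0.31 on the same arrays, and all 19 were above their own mean on replicate 2. Without mirtazapine replicate 2 the members' median difference was 0.05. Duloxetine showed the same contrast between its arrays: 24 of 33 members were higher on replicate 2, and their median deviation was −0.123 on replicate 1 and 0.106 on replicate 2, where the other leukocyte genes stood at −0.068 and 0.31. The part of the other leukocyte shift in the macrophage values was not tested.

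**Figure D4:**
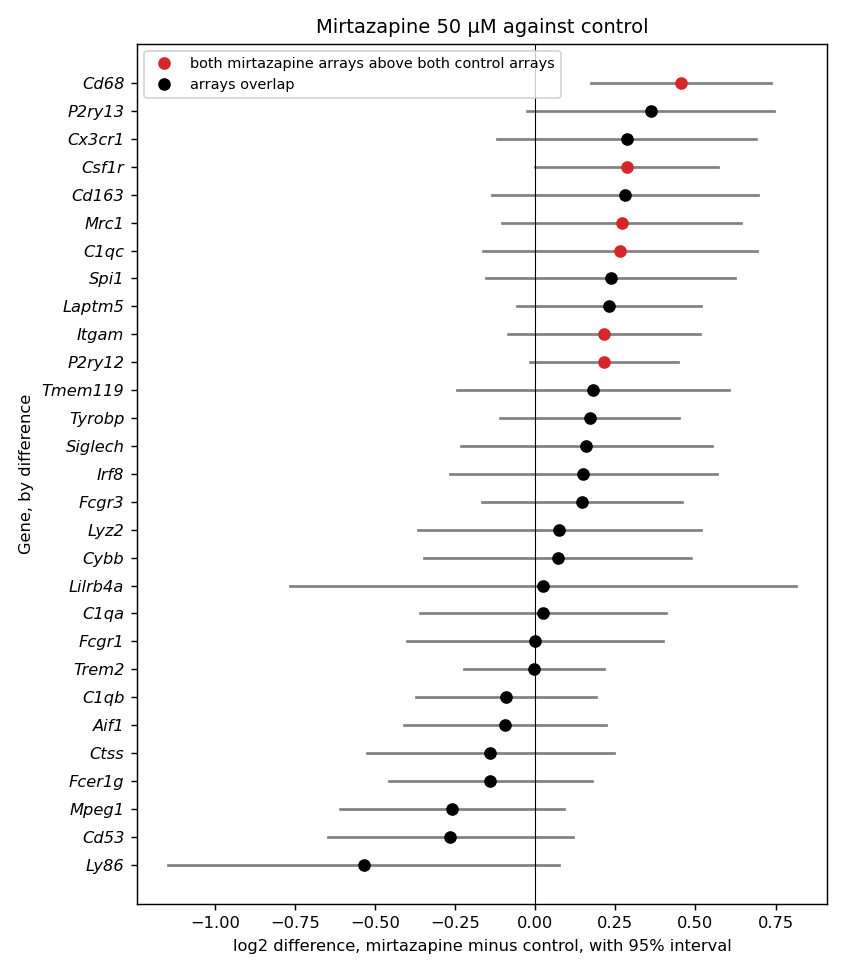
Log2 difference of mirtazapine from control for the 29 tested members, with 95% intervals from limma; red points mark genes whose mirtazapine arrays both lie above both control arrays. Cd68 (0.455) is the highest and Ly86 (−0.535) the lowest, and the interval of Cd68 is the one that lies wholly above 0.

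**Figure D5:**
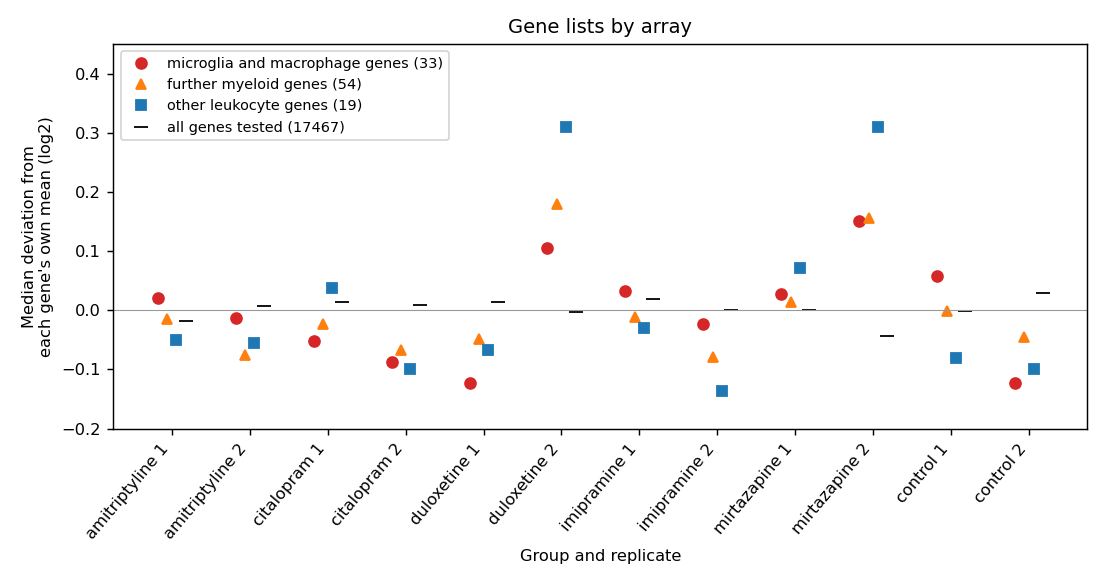
Median deviation of 4 gene sets from each gene's own mean over 12 arrays (vertical axis, log2) on each array; the number of genes is in the legend. Other leukocyte genes reach 0.31 on duloxetine replicate 2 and on mirtazapine replicate 2, where the macrophage genes stand at 0.106 and 0.15.

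The tricyclics amitriptyline and imipramine, both at 5 µM for 48 h, were compared directly. In limma 0 of 29 members were called, 0 had an unadjusted p under 0.05, and the same held for 0% and 1.21% of all tested genes. Differences were above 0 for 15 of 33 members, against 40.7% of all tested genes. Both amitriptyline arrays lay above both imipramine arrays for 4 of 29 tested members, C1qa, Fcgr3, Irf8 and P2ry12, and below both for Lilrb4a and Trem2, 2 of 29, against 12.4% and 20.3%. The highest differences, amitriptyline minus imipramine, were those of Fcgr3 (0.215, interval −0.097 to 0.527) and Irf8 (0.175, interval −0.241 to 0.591). The lowest were those of Lilrb4a (−0.19, interval −0.979 to 0.599) and Cybb (−0.18, interval −0.597 to 0.237). For Cd68 the difference was 0.085 (interval −0.197 to 0.367) and for Lyz2 0.08 (interval −0.362 to 0.522). These intervals leave room for differences of either sign. The other drugs were given at unlike doses and are set beside each other only as values.

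Signals that sustain or restrain microglia were measured through 16 genes, of which 14 were tested and 0 called under any drug in limma. The Csf1r ligand gene Csf1 had a mean difference between −0.145 and 0.145 under the 5 drugs, and its fellow ligand gene Il34 between −0.06 and 0.3. The neuronal ligand of Cx3cr1, encoded by Cx3cl1, was lower under all 5 drugs, by −0.225 under mirtazapine (unadjusted p = 0.0458, adjusted p = 0.216 in limma). Cd200, a neuronal brake on macrophages, ranged from 11.39 to 11.61 over the 12 arrays. The receptor gene Tgfbr1, through which TGF-beta keeps microglia in their resting state, differed by −0.31 under duloxetine and −0.38 under mirtazapine (adjusted p = 0.492 and 0.144 in limma). Csf2, which encodes the cytokine GM-CSF, differed by 0.59 under duloxetine and 0.53 under mirtazapine (adjusted p = 0.492 and 0.214 in limma), with 7.12 and 7.03 on the 2 arrays that stand apart and between 6.1 and 6.48 on the other 10. Tgfb2 differed by −0.31 under amitriptyline, −0.305 under duloxetine and −0.38 under mirtazapine (adjusted p = 0.996, 0.531 and 0.228 in limma), with both arrays below both control arrays each time, and by −0.08 under citalopram and −0.05 under imipramine. Differences of Ccl2, Ccr2, Cd200r1, Cd47, Csf2ra, Csf2rb, Sirpa, Tgfb1 and Tgfbr2 lay between −0.26 and 0.3 for all 5 drugs.

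Of the further myeloid genes 45 were tested and 0 called under any drug in limma. Under mirtazapine 39 of 54 were positive (median 0.098), and 20 of the 45 had both arrays above both control arrays, against 22.6% of all tested genes. Their median deviation from their own means was 0.0137 on mirtazapine replicate 1 and 0.156 on replicate 2, the array that stands apart, where 47 of 54 were above their own mean. Both mirtazapine arrays also lay above both control arrays for 8 of 11 other leukocyte genes and 4 of 7 endothelial genes tested. Tlr1, a receptor for bacterial lipopeptides, was lower under mirtazapine by −0.53 (unadjusted p = 0.00561, adjusted p = 0.106 in limma), and it was among the 9 genes that were 0.3 or more higher in control replicate 1. Of the lists of other cell types, 3 genes passed the test, all lower under mirtazapine: the astrocyte genes Aqp4, a water channel (−1.165, adjusted p = 0.01 in limma), and Gfap, an intermediate filament (−0.6, adjusted p = 0.0214), and Olig1, a transcription factor of the oligodendrocyte lineage (−0.83, adjusted p = 0.0223). Most of the genes in the astrocyte and oligodendrocyte lists that did not pass also had negative differences: 8 of 8 astrocyte genes were negative under amitriptyline and imipramine and 7 of 8 under citalopram and mirtazapine, the named genes included, and 7 of 7 oligodendrocyte lineage genes under these 4 drugs. No gene of these lists was called under another drug.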

How the data were processed

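The deposited values are log2 signals of 41345 probe sets on 12 arrays, with 2 decimals; the authors used RMA in Affymetrix Expression Console, per the submitters' processing notes, which name neither version nor genome build. Groups and replicate numbers come from the labels' titles. The platform annotation gave 1 gene symbol for 23521 probe sets, several for 1814 and none for 16010. The probe set of highest mean stood for a gene, and genes with a mean log2 of at least 5.724 were tested (17467 of 22180). All 12 arrays entered 1 limma fit (limma 3.58.1, R 4.3.3; lmFit, eBayes without trend, 6 residual and 3.86 prior degrees of freedom), tested on simulated data. Intervals are 95%, tests cover both directions, and p-values were adjusted over all tested genes. RMA values hold no counts, so depth cannot be given and the number of arrays limits the precision. Same-numbered arrays of different groups did not pair across the series: 4 of 15 correlations of their deviations from group means were over 0.1 (range −0.438 to 0.712). The highest, 0.712, was between duloxetine and mirtazapine, the groups with an array that stands apart. The lowest was between amitriptyline and mirtazapine.

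The 33 members, the lists of other cell types and ligands, and the alternatives were chosen with earlier results of these data known. Named with values on every array are the 2 highest and 2 lowest tested members per drug and a set of defining genes (Aif1, Csf1r, Cx3cr1, P2ry12, Tmem119, Trem2, Tyrobp, the C1q chains, Spi1, Ptprc, Mrc1); P2ry13, Cd163 and the genes of the control arrays' split follow from the values. Some genes of the lists of other cell types are not analysed here. Alternatives were no filter, a filter at the 50th percentile, the mean of a gene's probe sets, eBayes with trend and robust, array weights, another quantile normalization, a replicate block, the groups compared alone, each array left out, and both arrays that stand apart left out. Promoter windows come from RefSeq (GRCm38.p6). Figures were drawn with matplotlib 3.10.9 in Python 3.11.15.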

Additional observations from a re-analysis of the deposited data

How the results depend on the processing

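The count of 0 called members held for amitriptyline, citalopram, imipramine, the 2 tricyclics against each other and the F test under each alternative run, the replicate block (0 members for every comparison) and both apart-standing arrays left out (0) included. Under mirtazapine 1 member, Cd68, was called after another quantile normalization (0.577, adjusted p = 0.0494 in limma), and leaving out 1 array gave 0 to 1, Lilrb4a without control replicate 2 (−0.735, adjusted p = 0.0378). Under duloxetine the count changed without duloxetine replicate 1, through Fcgr1 (0.45). That setting leaves duloxetine replicate 2 alone, an array that stands apart and the one where Fcgr1 was highest (6.81). A lone array is taken to vary like the other groups.

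The members' median for duloxetine (0.01) was −0.095 over members past the 50th percentile filter and −0.145 without both arrays that stand apart. That for mirtazapine (0.145) was 0.05 in both of these settings and 0.0392 after another quantile normalization. With 1 array left out the medians ranged from −0.115 to 0.1 for amitriptyline, −0.175 to 0.04 for citalopram, −0.145 to 0.22 for duloxetine, −0.1 to 0.09 for imipramine and 0.05 to 0.19 for mirtazapine. The ends came from leaving out a control array for amitriptyline, citalopram and imipramine, and a duloxetine array for duloxetine.

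Single genes turned sign as follows, and the cause was not tested. With 1 array left out, Aif1 under amitriptyline ranged from −0.385 to 0.035, Cd53 under mirtazapine from −0.595 to 0.065, Ly86 under imipramine from −0.91 to 0.12, Lilrb4a under imipramine from −0.34 to 1.18 and under mirtazapine from −0.735 to 0.785, Lyz2 under mirtazapine from −0.295 to 0.445, Spi1 under mirtazapine from −0.03 to 0.5, Cd163 under duloxetine from −0.025 to 0.475 and Fcgr1 under duloxetine from −0.21 to 0.45. Without both arrays that stand apart, Cd163 (−0.025) and Fcgr1 (−0.21) under duloxetine and Lilrb4a (−0.06) and Spi1 (−0.03) under mirtazapine were negative. Quantile normalized again, Lilrb4a (−0.0921) and Lyz2 (−0.0208) under mirtazapine were negative. The direction of Cd68 held in each alternative run, but with 1 array left out its size ranged from 0.235 to 0.655 under amitriptyline, 0.03 to 0.45 under citalopram, −0.43 to −0.01 under duloxetine, 0.15 to 0.57 under imipramine and 0.245 to 0.665 under mirtazapine. Ctss under duloxetine ranged from −0.56 to −0.11.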
